A study of Mus musculus with 6 samples.

Results

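The genes described here encode voltage-gated and ligand-gated ion channels and their close relatives: potassium channels (Kcn), sodium channels (Scn), calcium channels (Cacn), chloride channels and exchangers (Clcn), TRP cation channels (Trpc, Trpv, Trpm) and ATP-gated P2X receptors (P2rx). They were chosen by gene symbol among the probe sets that the platform annotation gives a single gene, leaving out the main muscle isoforms Cacna1s and Scn4a. This gave 97 probe sets of 77 genes, out of 10833 single-gene probe sets of 8251 genes. The symbol rule also took Trpc4ap, which encodes a protein that associates with a TRP channel and is not itself a channel.

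The muscle was the mouse tibialis anterior, a fast muscle of the shin. In the eccentric group (EC) it had undergone 50 contractions during which the active muscle was lengthened, and in the isometric group (IC) 50 contractions at fixed length, and both were collected 48 h later. The control legs (Control) were the opposite legs, stimulated only enough to measure torque, and the labels do not say whether they belonged to EC or IC animals. The sources used here give no strain, sex or age. For each group the RNA of 4 animals was pooled and put on 2 Affymetrix MGU74Av2 arrays, lettered A and B, so each group is 1 biological sample and every SD below is over n = 2 arrays of 1 pool. No test between the kinds of contraction is possible, and the number of arrays limits the precision.

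A muscle fibre fires when sodium channels open along its surface, and potassium and chloride channels bring the membrane back to rest. Chloride flow through Clcn1 and potassium flow through inward rectifiers hold the resting potential, ATP-sensitive potassium channels built on Kcnj11 open when energy runs low, and a calcium channel with its Cacna2d1, Cacnb and Cacng1 subunits senses the voltage that starts contraction. Macrophages and other leukocytes use a different set, among them Kcnn4, P2rx4 and P2rx7, to control their membrane potential, migration and response to extracellular ATP.

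All 10 fast fibre markers, Myh4, Actn3 and Ckm among them, lay above the floor on every array. The floor, a signal of 120.8, was the 40th percentile of all values, and a gene counted as above background when at least 1 pool had both of its arrays over the floor. Each array had 59.2% to 61.2% of its probe sets above the floor. Channel genes above the floor numbered 33 and 36 on the EC arrays, 37 and 38 on the IC arrays, and 42 (array A) and 37 (array B) on the Control arrays. Control array A thus had more channel genes above the floor than any other array. Arrays A and B of one pool differed, over channel genes above the floor on at least 1 of them, by a median absolute log2 value of 0.15 in EC, 0.26 in IC and 0.27 in Control, where all genes gave 0.14, 0.24 and 0.23.

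Of the 77 genes, 38 were above background, which is 49.4% against 70.1% of all 8251 genes. On all 6 arrays 26 genes exceeded the floor, and 31 exceeded it on none. The level that counts as background matters here: of 47 genes known from pituitary, lens, retina, germ cells, pancreas and other tissues, 20 also passed the same criterion, and their signals had a 75th percentile of 208.5 and a 90th percentile of 683.7. Above the first of these levels on both arrays of a pool were 32 channel genes. Above the second were 7: Cacna2d1, Cacng1, Clcn1, Clcn3, Kcna7, Kcnq1 and Trpc4ap. A probe set just above the floor is therefore weak evidence of a transcript in muscle.

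Families differed in how many members lay above background. All 4 P2X receptors did (P2rx1, P2rx4, P2rx6 and P2rx7), as did 5 of 6 Clcn genes (Clcn1, Clcn3, Clcn4, Clcn5 and Clcn7) and 4 of 5 Kcnk genes, which encode leak channels of the K2P family (Kcnk1, Kcnk2, Kcnk4 and Kcnk7). Among calcium-activated potassium channels and a relative, 3 of 4 did (Kcnma1, Kcnn1 and Kcnn4). Of 11 inward rectifiers 5 did (Kcnj4, Kcnj8, Kcnj9, Kcnj11 and Kcnj12), and of 11 calcium channel subunits also 5 (Cacna1b, Cacna1c, Cacna2d1, Cacnb2 and Cacng1). Of 16 pore subunits of voltage-gated potassium channels 7 did (Kcna5, Kcna7, Kcnd1, Kcnd3, Kcnh2, Kcnq1 and Kcns2), and of 7 TRP channels 3 (Trpm1, Trpm7 and Trpv2). Kcnab2 was the only member above background of 6 auxiliary potassium channel subunits. None of the 6 sodium channels was above the floor on any array (Scn1a, Scn3a, Scn7a, Scn8a, Scn9a and Scn10a), with mean signals of 10.7 to 58.8. Of the 4 P2X receptors 2 exceeded the floor on all 6 arrays, while P2rx4 passed only through EC and P2rx6 only through IC.

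**Figure D1:**
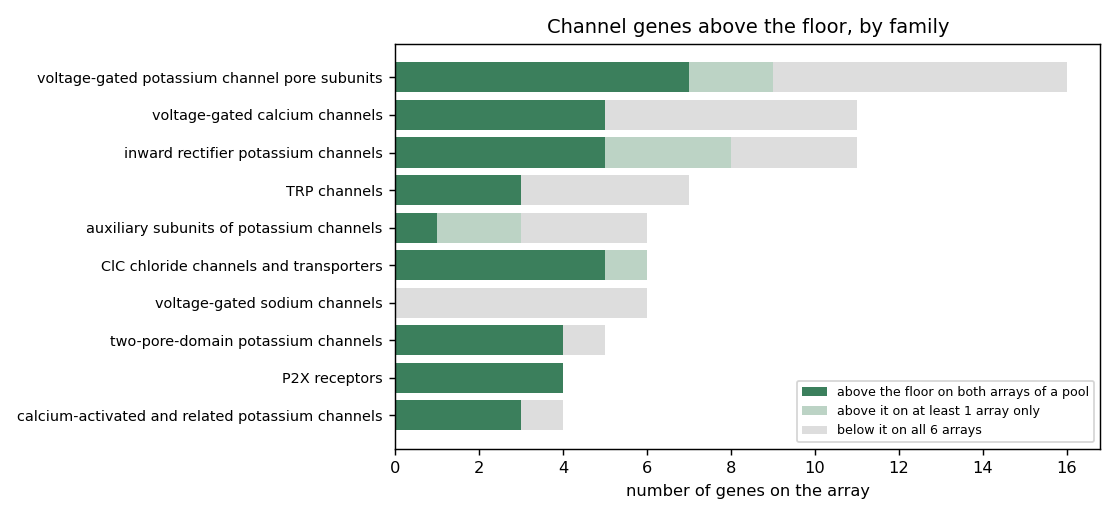
Number of genes per channel family (x axis), split by whether a gene was above background as defined in the text, exceeded the floor on some array without meeting that criterion, or was below it on all 6 arrays. All 4 P2X receptors and 5 of 6 Clcn genes fall in the first class, and all 6 sodium channels in the last.

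Members near the floor were hard to place. Kcnk2, a leak channel opened by membrane stretch, passed only through the IC pool, at 134 and 122, with 118 and 94.5 in EC and 173 and 111 in Control. Clcn2, a chloride channel found in many tissues, had 107 and 157 in EC, 136 and 107 in IC, and 166 and 114 in Control, and missed the criterion in every pool. Kcnj2, an inward rectifier known from skeletal muscle, lay far below the floor on its only probe set, at 6.50 and 7.60 in EC, 9.10 and 9.30 in IC, and 47.3 and 28.2 in Control. These values describe the probe sets and not the amount of transcript, since signals of different probe sets cannot be set against each other. No fold is given for genes below the floor in both pools.

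**Figure D2:**
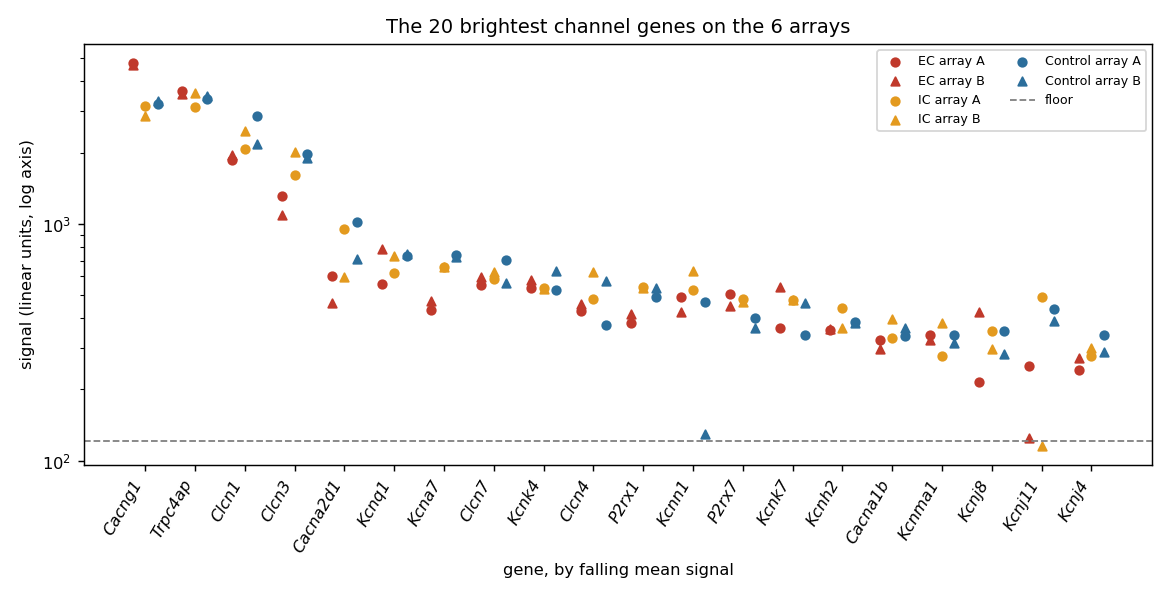
Signal of the 20 brightest channel genes by their 6-array mean (linear units on a log axis), with a point for each array (circles, array A; triangles, array B) and the floor of 120.8 as a dashed line. Both EC arrays of Cacng1 lie far above its other 4 arrays, and the EC arrays of Clcn3 and Kcna7 lie below all others.

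Upstream sequences are shown for 5 channels described below. They are 4 potassium or chloride channels of muscle fibres with lower signals in EC than in Control, and P2rx4, the one channel called higher in EC against Control. Of the 4 only Kcnd3 was called lower by the 2-fold rule used below. Each is the 150 bases before the start of the gene in RefSeq's annotation of GRCm38.p6, on the plus strand, at chr3:105451740-105451889 (Kcnd3), chr7:45405810-45405959 (Kcna7), chr11:61065654-61065803 (Kcnj12), chr6:42286535-42286684 (Clcn1) and chr5:122707394-122707543 (P2rx4). Capitals mark matches to the E-box CANNTG, the site of basic helix-loop-helix factors such as those of the myogenic family, or to the MEF2 motif, the site of the MEF2 factors of muscle. Both motifs read the same on both strands, and no match to one overlapped a match to the other.
Kcnd3: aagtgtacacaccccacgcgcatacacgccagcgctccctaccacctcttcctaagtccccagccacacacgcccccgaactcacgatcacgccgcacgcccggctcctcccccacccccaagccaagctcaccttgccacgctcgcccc
Kcna7: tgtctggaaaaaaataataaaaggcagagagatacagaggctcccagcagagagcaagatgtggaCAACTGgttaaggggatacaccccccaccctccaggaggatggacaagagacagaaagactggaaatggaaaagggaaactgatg
Kcnj12: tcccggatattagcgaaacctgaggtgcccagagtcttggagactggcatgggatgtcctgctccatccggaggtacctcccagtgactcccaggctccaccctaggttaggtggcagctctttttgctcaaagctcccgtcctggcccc
Clcn1: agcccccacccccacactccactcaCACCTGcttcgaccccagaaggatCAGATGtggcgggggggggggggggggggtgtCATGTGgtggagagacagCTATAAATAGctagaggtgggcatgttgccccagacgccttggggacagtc
P2rx4: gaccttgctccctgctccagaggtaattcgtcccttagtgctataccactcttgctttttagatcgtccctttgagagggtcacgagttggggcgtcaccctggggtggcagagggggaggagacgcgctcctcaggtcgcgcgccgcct

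Clcn1 had 3 E-box matches and 1 MEF2 match, whose first base lay 51 bases before the gene start, and Kcna7 had 1 E-box match. The other 3 windows held neither motif. Of 32851 RefSeq promoters with the same window, 47.7% held an E-box match and 1.67% a MEF2 match, while of 50 promoter entries of channel genes above background 25 held the first and 2 the second. The motifs and the 5 genes were picked after the values were seen, and a match is a description of letters only. RefSeq's promoter table had an entry for 63 of the 77 genes. Cacng1 and Kcnj11 are named without a sequence, and Cacnb2, Trpm1 and Kcnn1 have more than 1 start in it.

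EC against Control addresses what lengthening contractions changed in the muscle 48 h later. A gene was called when its mean log2 signals (floored at 120.8) differed by at least 1, that is 2-fold, and both arrays of one pool lay on the same side of both arrays of the other. Among 36 measured channel genes, meaning those with both EC or both Control arrays over the floor, 4 were called lower (Kcnd3, Trpm1, Kcnj11 and Cacnb2) where 1.06% of all 5682 measured genes were, and 1 was called higher (P2rx4) where 5.16% were. The other 31 did not pass. The median log2 difference of the 36 genes was -0.17, beside -0.02 for all measured genes. For the 19 measured genes known from other tissues it was -0.185, with 13 below 0 and 6 above, so a median of this size was not particular to channels. The arrays of the pools did not overlap, whatever the size, for 18 of 36 with EC lower (31.0% of all genes) and for 7 with EC higher (30.8%). At 1.5-fold 11 were called lower and 3 higher, where 7.25% and 12.2% of all genes were, and at 3-fold 1 lower and 0 higher, where 0.0704% and 1.25% were. The 11 include Clcn3 and Kcnj9, whose other probe sets, given below, do not show the decrease. These counts rest on genes that often entered through 1 pool only and on 1 pool per group, so they describe these RNA pools.

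Other changes in the tissue accompanied these values. In EC against Control 5.16% of all measured genes were called higher and 1.06% lower, so 0 calls in a short list says little. Of 13 measured macrophage markers 12 were called higher in EC and 0 lower. Their median log2 difference was 1.65, with summed signals of 29732 and 30034 on the EC arrays, 15801 and 16282 on the IC arrays, and 9494 and 9854 on the Control arrays. All 10 fast fibre markers had differences below 0 in EC against Control (median -0.27, 0 called), with summed signals of 219880 and 215860 in EC, 213160 and 292860 in IC, and 294420 and 239050 in Control. Beta-actin probe sets at the ends of the transcript, whose 3'/5' ratio is a measure of RNA quality, gave log2 ratios of 0.43 and 0.46 on the EC arrays, 0.14 and 0.28 on the IC arrays, and 0.01 and 0.07 on the Control arrays. The same ratio for Gapdh did not follow that order, at 0.12 and 0.13 in EC, -0.07 and 0.27 in IC, and -0.05 and -0.07 in Control. Of 10 nerve and Schwann cell markers 5 were measured and 0 called, with summed signals of 2124 and 2435 in EC, 2287 and 2399 in IC, and 2648 and 2171 in Control, and Nefl, Nefm, S100b and Cnp were below the floor on all 6 arrays. The part of these shifts in the channel values was not tested. In whole muscle, fewer cells of a type and less RNA per cell cannot be told apart.

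**Figure D3:**
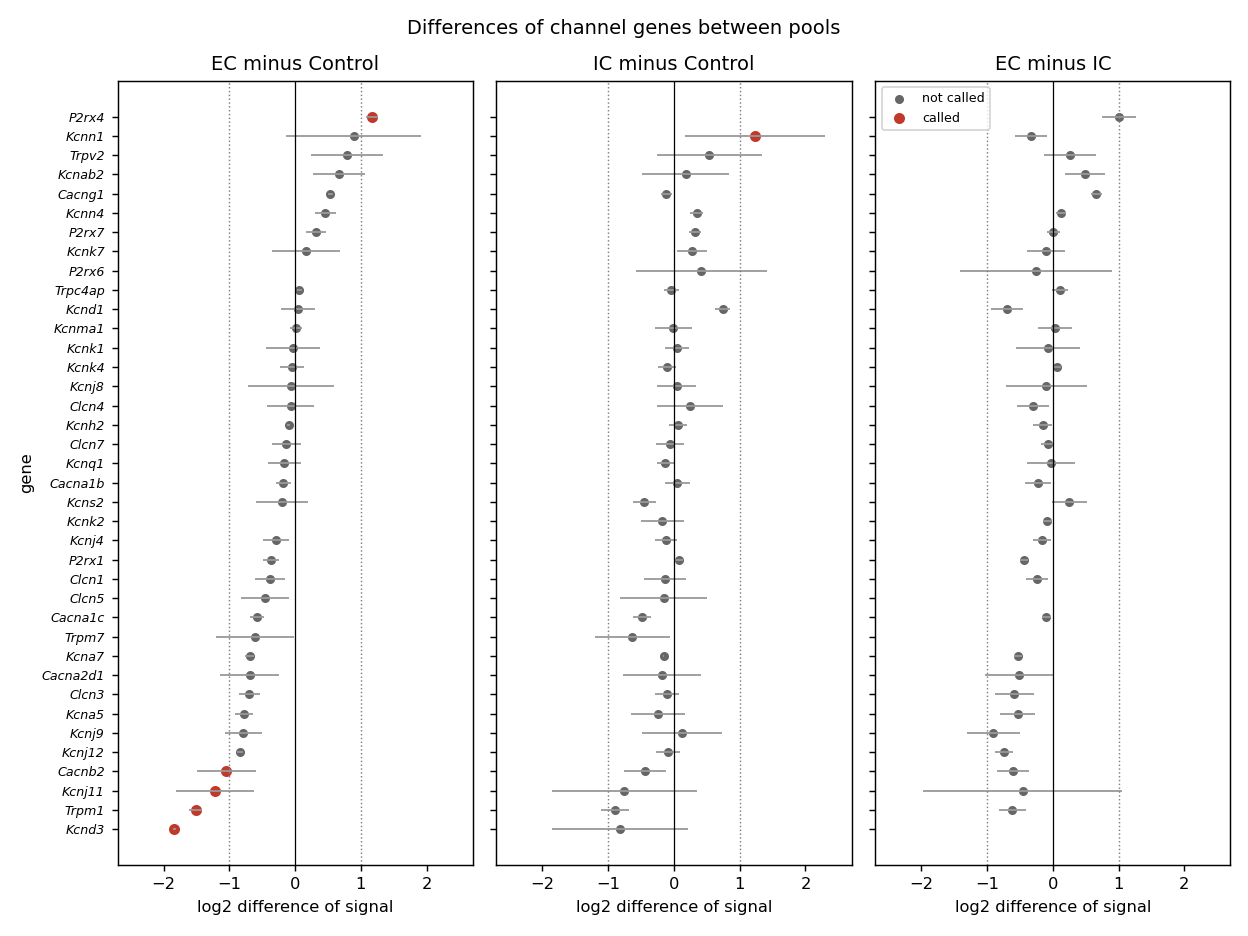
Difference of mean log2 signal (x axis) for each of the 38 genes above background (y axis), for EC minus Control, IC minus Control and EC minus IC. Bars run from the lowest to the highest of the 4 array pairings, genes without a point were not measured in that comparison, and red points passed the 2-fold rule, 5 of them in the first panel, 1 in the second and 0 in the third.

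Among the potassium channel pores, Kcnd3, which carries a fast transient outward current, had signals of 94.4 and 83.5 in EC, 81.9 and 492 in IC, and 424 and 437 in Control. Both EC arrays were below the floor and both Control arrays well above it, so Kcnd3 was at least 3.57-fold lower in EC than in Control. IC array A lay below the floor as well while IC array B was the brightest of the 6. The IC arrays carry the same RNA, so this gap is technical, and without IC array B Kcnd3 was called lower in IC against Control at a log2 difference of -1.83.

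Kcnj11, the pore of the ATP-sensitive potassium channel, had 251 and 125 in EC, 493 and 116 in IC, and 439 and 388 in Control. Its log2 difference of -1.22 in EC against Control ran from -1.81 to -0.63 over the array pairings. Both EC arrays were lower than both Control arrays, but the IC arrays again lay far apart, 1 above and 1 below all Control values. Without EC array B the difference was -0.72 and the gene was not called.

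Kcna7, a voltage-gated potassium channel of skeletal muscle and heart, did not reach 2-fold but varied little between arrays. It had 435 and 474 in EC, 655 and 656 in IC, and 736 and 727 in Control. The 3 pools did not overlap, EC being lowest and Control highest, with a log2 difference of -0.69 in EC against Control and -0.16 in IC against Control. Kcna5, a voltage-gated channel known from heart and smooth muscle, had 93.9 and 106 in EC, 210 and 145 in IC, and 228 and 188 in Control, so the EC arrays were below the floor. Its log2 difference of -0.78 against Control is limited by the floor. Kcnh2, a delayed rectifier known from the heart, was nearly level at 359 ± 3.46 in EC, 402 ± 53.4 in IC and 384 ± 3.10 in Control. Kcnq1, another cardiac and epithelial channel, had 670 ± 160 in EC, 676 ± 78.4 in IC and 740 ± 5.88 in Control on a probe set with the suffix r, a less specific design, and its other probe set lay below the floor on all arrays.

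All 5 inward rectifiers above background had differences below 0 in EC against Control on the probe sets used, as had 2950 of all 5682 measured genes. Kcnj11 alone was called. The median of the 5, -0.79, is the value of Kcnj9, whose probe sets disagree. Kcnj12, one of the rectifiers that hold the resting potential, had 184 and 183 in EC, 337 and 278 in IC, and 337 and 317 in Control. Its EC arrays were below the other 4 arrays and nearly equal to each other, with a log2 difference of -0.84. Kcnj4, a related rectifier, had 257 ± 20.8 in EC, 287 ± 15.1 in IC and 314 ± 35.3 in Control. Kcnj8, a pore of ATP-sensitive channels in blood vessels, had 320 ± 147 in EC, 326 ± 41.0 in IC and 318 ± 50.4 in Control, and its pools overlapped.

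Kcnj9, a rectifier opened by G proteins and best known from neurons, gave opposite answers on its 2 probe sets. The brighter, with the suffix r, had 171 and 163 in EC, 242 and 402 in IC, and 340 and 242 in Control, a log2 difference of -0.79 in EC against Control. The other had 270 and 251 in EC, 124 and 136 in IC, and 93.2 and 153 in Control, a log2 difference of 0.94. Neither direction can be given to the gene, and the inward rectifier count and median above include it on its brighter probe set.

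Among the remaining potassium channels, the calcium-activated Kcnma1, the large-conductance channel, was level at 333 ± 10.8 in EC, 329 ± 72.4 in IC and 328 ± 18.5 in Control. Kcnk4, a leak channel opened by stretch, had 557 ± 29.4 in EC, 534 ± 0.44 in IC and 577 ± 75.4 in Control, and Kcnk7, a relative for which no current of its own is known, had 453 ± 126 in EC, 478 ± 1.12 in IC and 400 ± 87.3 in Control. The leak channel Kcnk1 had 144 ± 75.4 in EC, 164 ± 21.4 in IC and 158 ± 8.06 in Control. None of these 4 was called in any comparison, and their EC and Control arrays overlapped.

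The subunits of the voltage-gated calcium channel differed in the direction of their values, and 1 of them was called. Cacng1, the gamma subunit of the skeletal muscle channel, had 4774 and 4670 in EC, 3141 and 2861 in IC, and 3209 and 3293 in Control. Both EC arrays were above all other arrays, 1.45-fold over Control, a log2 difference of 0.54 that ran only from 0.50 to 0.57 over the pairings. Cacna2d1, the alpha-2/delta subunit of the same channel, had 602 and 464 in EC, 952 and 596 in IC, and 1020 and 713 in Control. Its EC arrays lay below both Control arrays, with a log2 difference of -0.69 (-1.14 to -0.25).

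Cacnb2, a beta subunit known mainly from cardiac and neuronal channels, had 140 and 180 in EC, 232 and 252 in IC, and 393 and 273 in Control. The 3 pools did not overlap, and the log2 difference of -1.04 in EC against Control passed the rule narrowly. Without EC array A it was -0.86 and without Control array A -0.78, and in neither case was the gene called. Cacna1c, the pore of the cardiac and smooth muscle L-type channel, had 222 and 216 in EC, 243 and 226 in IC, and 348 and 308 in Control. Both exercised pools thus lay below Control, with log2 differences of -0.58 for EC and -0.48 for IC, on a probe set with the suffix s, which other transcripts may share. Cacna1b, the pore of a neuronal channel, had 309 ± 18.2 in EC, 363 ± 47.3 in IC and 349 ± 18.3 in Control.

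Among the chloride channels and exchangers no gene was called on the probe set used. In EC against Control 5.16% of all genes were called higher and 1.06% lower. All 5 measured Clcn genes had differences below 0 in that comparison, with a median of -0.38, as had 2950 of all 5682 measured genes. The 5 include Clcn5 and Clcn7, whose other probe sets had differences above 0. Clcn1, the chloride channel of the resting fibre, had 1854 and 1959 in EC, 2073 and 2471 in IC, and 2842 and 2177 in Control. The EC arrays were the lowest of the 6, with a log2 difference of -0.38 (-0.62 to -0.15) against Control. Its other probe set lay below the floor on all arrays.

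Clcn3, an exchanger of endosomes, had 1314 and 1085 in EC, 1608 and 2007 in IC, and 1970 and 1900 in Control on its brightest probe set, a log2 difference of -0.70. Its other 3 probe sets, all above background, had differences of -0.12, 0.00 and 0.03 so a clear difference was seen on 1 of 4 probe sets. Clcn4, a related exchanger, had 443 ± 21.3 in EC, 554 ± 104 in IC and 474 ± 142 in Control. Clcn7, the exchanger of lysosomes and osteoclasts, had 573 ± 30.1 in EC, 605 ± 28.1 in IC and 633 ± 103 in Control, while its dimmer probe set had 129 and 268 in EC, 69.0 and 97.7 in IC, and 78.7 and 113 in Control, above the floor on both arrays only in EC.

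Clcn5, an endosomal exchanger known from the kidney, also split by probe set. The probe set with the higher mean, of suffix r, had 152 and 68.5 in EC, 117 and 230 in IC, and 212 and 163 in Control, and its difference in EC against Control was -0.46. The dimmer had 309 and 275 in EC, 95.0 and 80.6 in IC, and 22.3 and 61.5 in Control. It was at least 2.41-fold higher in EC than in either of the other pools, which lay wholly below the floor, and would be called higher in EC in both comparisons if probe sets were counted one by one (so were 5.0% of probe sets against Control and 1.73% against IC, while 1.13% and 0.631% were called lower). The probe sets disagree, and no direction is given to Clcn5.

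The ligand-gated P2X receptors included the channel gene that was called higher. P2rx4, an ATP-gated cation channel of macrophages and other cells, had 256 and 289 in EC, 153 and 71.4 in IC, and 79.4 and 92.5 in Control. Both EC arrays were well above the floor and both Control arrays below it, so P2rx4 was at least 2.25-fold higher in EC. P2rx7, whose channel opens at high ATP and activates the inflammasome in macrophages, had 504 and 452 in EC, 482 and 470 in IC, and 400 and 363 in Control. Both exercised pools lay above Control, by log2 differences of 0.32 each, short of 2-fold. P2rx1, known from platelets and smooth muscle, had 383 and 415 in EC, 540 and 539 in IC, and 490 and 537 in Control, lowest in EC with a log2 difference of -0.36. P2rx6 varied as much within pools as between them, at 69.7 and 330 in EC, 323 and 177 in IC, and 101 and 265 in Control.

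**Figure D4:**
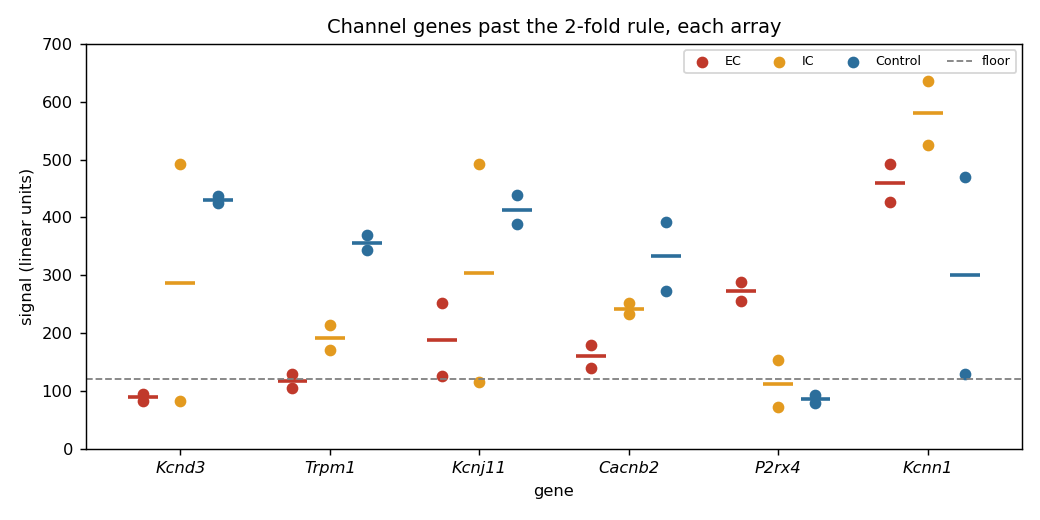
Signal (linear units, y axis) on each array for the 6 channel genes that passed the 2-fold rule in any comparison, with short bars for the means of the 2 arrays of each pool and the floor of 120.8 as a dashed line. The EC points of Kcnd3, Trpm1, Kcnj11 and Cacnb2 lie below the Control points and those of P2rx4 above them, while the IC points of Kcnd3 and Kcnj11 and the Control points of Kcnn1 lie far apart.

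Of 8 measured channels in a list of those known from leukocytes, 1 was called higher in EC against Control (P2rx4), 0 lower and 7 did not pass, where 5.16% of all genes were called higher and 1.06% lower. Differences were above 0 for 5 and below 0 for 3 (Clcn5, Clcn7 and P2rx1), with a median of 0.39, while 2732 of all 5682 measured genes were above 0. Kcnn4, a calcium-activated potassium channel of lymphocytes and macrophages, had 325 and 296 in EC, 287 and 284 in IC, and 239 and 212 in Control. Its 3 pools did not overlap, with log2 differences of 0.46 for EC and 0.34 for IC against Control. Trpv2, a cation channel with a role in phagocytosis, had 306 and 276 in EC, 194 and 304 in IC, and 50.6 and 233 in Control. Its difference of 0.79 in EC rests on Control array A, and without Control array B, the brighter of that pool, it was called. Kcnab2, a beta subunit of voltage-gated potassium channels, had 255 and 264 in EC, 225 and 151 in IC, and 212 and 126 in Control on a probe set of suffix f, which can detect relatives, and was not called, except without Control array A or at 1.5-fold. Its other probe set had 114 and 157 in EC, 91.5 and 77.3 in IC, and 179 and 61.8 in Control. That probe set missed the background criterion in every pool, and its EC and Control arrays overlapped. Kcna3, a potassium channel of T cells, was not measured, at 39.9 and 69.0 in EC, 105 and 124 in IC, and 147 and 97.0 in Control. The macrophage marker sums given above were highest in EC and lowest in Control. On the probe sets used, the mean signals of P2rx4, P2rx7, Kcnn4, Trpv2 and Kcnab2 share that order. Those of P2rx1, Clcn5, Clcn7 and Kcna3 do not. The other probe sets of Clcn5 (means of 292 in EC, 87.8 in IC and 41.9 in Control) and Kcnab2 (135, 84.4 and 120) give the opposite answers. The part of macrophages in these values was not tested.

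Of 9 measured channels from a list of those known in fibres, in regenerating or in denervated muscle, 2 were called lower in EC (Kcnd3 and Kcnj11), 0 higher and 7 did not pass, where 1.06% of all genes were called lower and 5.16% higher. Differences were below 0 for 7 of the 9, with a median of -0.69, and the arrays did not overlap with EC lower for 7 (31.0% of all genes) and with EC higher for 1, Cacng1 (30.8%). Trpm7, a channel fused to a kinase, was among these 7 by a narrow margin, at 66.9 and 225 in EC, 67.7 and 219 in IC, and 279 and 227 in Control. Array A of both exercised pools was below the floor while array B was close to the Control arrays. Lack of overlap with EC lower was not particular to fibre channels. It was also seen for 9 of 10 fast fibre markers and for 11 of the 15 measured excitation genes described below, with EC higher for 0 in either list. Of 20 channels in a list of neuronal ones 4 were measured and 0 called, where 5.16% of all genes were called higher and 1.06% lower. With so few members the count says little. All 4 had values below 0 in EC (median -0.48), as had 2950 of all 5682 measured genes. The 4 were Kcna5 and Kcnh2, also known from the heart, Kcnj9, whose probe sets disagree, and Cacna1b.

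Of 15 measured genes of membrane excitation and its coupling to contraction that are no channels of this set, 2 were called lower in EC against Control, 0 higher and 13 did not pass, where 1.06% of all genes were called lower and 5.16% higher, with 12 differences below 0 and a median of -0.35. Aqp4, the water channel of fast fibres, had 391 and 419 in EC, 1905 and 1026 in IC, and 1338 and 1540 in Control. Atp1b2, a beta subunit of the sodium pump, had 244 and 270 in EC, 334 and 367 in IC, and 532 and 503 in Control, and its log2 difference of -1.01 in EC passed the rule narrowly. The EC arrays of both genes were below all others. In IC against Control 0 of the 15 were called, where 0.915% of all genes were called higher and 0.323% lower, and the median was -0.04.

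Trpm1, a cation channel known from melanocytes and from bipolar cells of the retina, was called lower in EC. It had 106 and 129 in EC, 170 and 214 in IC, and 369 and 343 in Control. The pools did not overlap and lay in the order EC, IC, Control, with a log2 difference of -1.51 in EC against Control and -0.90 in IC against Control. The gene's best known sites are outside muscle and the EC signals lie about the floor, so what transcript the single probe set detects is not known from these data. Trpc4ap, the member that is no channel, was level at 3584 ± 66.4 in EC, 3338 ± 318 in IC and 3425 ± 59.2 in Control.

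As an alternative to the size rule, limma was fitted to the 6 arrays over all measured genes, which sets a difference against the scatter of the arrays and speaks of these pools alone. With Benjamini-Hochberg adjustment it called 5 channel genes in EC against Control, where it called 9.5% of all genes. They were Trpm1 (adjusted p = 0.00863), P2rx4 (0.015), Kcnj12 (0.0286), Kcna7 (0.0328) and Cacnb2 (0.0429). Kcnd3 (limma adjusted p = 0.113) and Kcnj11 were not among them, while Kcnj12 and Kcna7, steady across arrays, were. The fit takes the scatter of a gene from all 3 pools. For Kcnd3 the IC arrays, at 81.9 and 492, lay far apart, while the EC arrays and the Control arrays each lay close together. The fit used the floored signals, so scatter below the floor did not enter it. Both Control arrays and IC array B of P2rx4 stood at the floor, as did EC array A of Trpm1. P2rx4 also entered this comparison only through EC, where it is high. The adjusted p-values of these 2 genes are therefore not a full measure of array scatter. With the array letter as a replicate block, Trpm1 (limma adjusted p = 0.0264) and P2rx4 (0.0374) remained, where 5.12% of all genes were called.

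IC against Control addresses the effect of contractions at fixed length. Among 37 measured channel genes 1 was called higher (Kcnn1), where 0.915% of 5574 genes were, and 0 lower, where 0.323% were. The median log2 difference was -0.10, beside -0.01 for all measured genes and -0.192 for the 18 measured genes known from other tissues. The arrays did not overlap for 6 of the 37 with IC higher (18.9% of all genes) and for 8 with IC lower (18.4%). Kcnn1, a calcium-activated potassium channel of small conductance best known from neurons, had 526 and 635 in IC and 470 and 130 in Control, with 493 and 427 in EC. At 1.5-fold 2 channel genes were called higher and 2 lower, where 3.89% and 2.31% of all genes were, and at 3-fold 0 and 0, where 0.0359% and 0.0718% were. The 2.34-fold difference of Kcnn1 rests on Control array B, and without that array the log2 difference was 0.30 and the gene was not called. Without Control array A Kcnn1 was called higher in EC too, at a log2 difference of 1.82.

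Kcnd1, which carries a transient outward current like Kcnd3, was among the 6 channels with both IC arrays above both Control arrays. It had 274 and 291 in IC against 161 and 177 in Control, a log2 difference of 0.74, and 200 and 152 in EC. Both IC arrays were above the other 4 arrays, but the difference did not reach 2-fold. Kcns2, a modulatory potassium channel subunit, had 110 and 124 in IC against 187 and 150 in Control, and 172 and 123 in EC, with values about the floor. Leaving out IC array B, Kcnd3, Trpm1 and Trpm7 were called lower in IC, as were 38 of all 5768 genes. Leaving out IC array A, Kcnj11 was, as were 65 of all 5824 genes. Calls in this comparison thus depend on which array is used. With every probe set counted, the channel calls were again 1 higher and 0 lower, where 0.908% and 0.363% of probe sets were called. By limma 0 channel genes were called at an adjusted p of 0.05, where 0.0179% of all genes were called, and 3 had an unadjusted p below it (Cacna1c, Kcnd1 and Trpm1), as had 578 of all 5574 genes.

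The comparison of the EC with the IC pool asks what lengthening adds to activity, and none of 35 measured channel genes was called, where 1.73% of 5622 genes were called higher and 0.676% lower. At an adjusted p of 0.05 limma called 0 of the 35, where it called 1.33% of all genes, and 11 had an unadjusted p below 0.05, as had 1117 of all 5622 genes. The median log2 difference of the channel genes was -0.16, beside 0.02 for all measured genes and 0.011 for the 18 measured genes known from other tissues. Of the 35, 25 had differences below 0, and the arrays did not overlap for 17 with EC lower (25.1% of all genes) and for 5 with EC higher (28.5%). At 1.5-fold 2 were called higher (Cacng1 and P2rx4) and 6 lower (Cacnb2, Clcn3, Kcnd1, Kcnj9, Kcnj12 and Trpm1), where 7.7% and 4.94% of all genes were. Of these 6, Kcnj9 had a log2 difference of 1.01 on its other probe set, and the other probe sets of Clcn3 had -0.15 to 0.08. At 3-fold 0 and 0 were called, where 0.32% and 0.0711% of all genes were. P2rx4 was nearest to a call, with 256 and 289 in EC against 153 and 71.4 in IC and log2 differences of 0.74 to 1.26 over the array pairings, whose mean fell just short of the threshold. It was called without EC array A and without IC array A. Cacng1 was 0.66 higher on the log2 scale, with both EC arrays above both IC arrays, and Kcnj12 and Kcna7 had differences of -0.74 and -0.53 with no overlap. The comparisons with Control share the same Control arrays, and the comparison of EC with IC shares its EC arrays with the first, so the values for a gene are not independent between them.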

How the data were processed

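Per the labels, total RNA of 4 animals was pooled per group and split onto 2 Affymetrix MGU74Av2 arrays. The deposited values are linear intensities of each probe set, with array means already nearly equal. How they were computed is not given in the sources used here. Arrays were rescaled to the same mean after trimming 2% at each end, floored at the 40th percentile and taken to log2. For genes with several probe sets (18 of 77 channel genes) the brightest was used. Comparisons ran over all single-gene probe sets. The p-values of limma describe arrays, not animals.

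Probe sets were named by the platform annotation, and all 77 gene IDs matched RefSeq's GRCm38.p6 table without a change of symbol. The members, lists and rules were chosen with earlier results of these data known. Named genes were the channels called in any comparison, the 20 brightest, the members of the fibre and leukocyte lists above background, and called members of the excitation list. Others given with values (Clcn2, Kcnj2, Kcna3, P2rx6, Kcnk1, Kcnk2, Kcna5, Kcnd1, Kcns2, Kcnj9 and Cacna1c) were chosen after their values were seen. Of red blood cell genes 4 were measured and 0 called in EC against Control (median -0.23), and of endothelial and smooth muscle markers 9 were measured and 0 called (median -0.13). In that comparison 5.16% of all genes were called higher and 1.06% lower. A check of the array letters gave correlations of -0.11 to 0.03 between pools of the array A minus array B differences. No pairing of arrays by letter was thus seen over all genes, and the check cannot decide this for single genes. On simulated data the fold rule was tested for recovery of known changes. Only changes of 3-fold or more in genes well above the floor were planted. The simulation therefore does not cover changes near 2-fold or genes near the floor, such as many of the channels here. Software was R 4.3.3 (limma 3.58.1) and Python 3.11.15 (numpy 2.4.6, pandas 2.3.3, matplotlib 3.10.9).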

Additional observations from a re-analysis of the deposited data

How the results depend on the processing

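Counts of called channel genes are given as higher and lower. For EC against Control (1 and 4) they were 2 and 7 of 48 with the floor at the 25th percentile (391 and 144 of 6776 genes), 0 and 1 of 31 at the 50th (213 and 41 of 4917), 0 and 2 of 28 with all 4 arrays above the floor (210 and 46 of 4984), 3 and 11 at 1.5-fold (where 12.2% and 7.25% of all genes were called), 0 and 1 at 3-fold, and 2 and 4 with every probe set counted. For IC against Control (1 and 0) they were 1 and 1 of 49 at the 25th percentile (111 and 77 of 6719 genes), 0 and 0 of 30 at the 50th (29 and 9 of 4764), 2 and 2 at 1.5-fold and 0 and 0 at 3-fold. For EC against IC (0 and 0) they were 1 and 1 of 48 at the 25th percentile (176 and 85 of 6704 genes), 2 and 6 at 1.5-fold, and 2 and 0 with every probe set. With limma and a replicate block, 1 channel gene was higher and 1 lower in EC against Control, and 0 in IC against Control, which was also 0 without the block. With 1 array left out the counts were 1 to 3 and 3 to 5 for EC against Control (289 to 365 and 60 to 119 of 5682 to 6010 genes). They were 1 to 1 and 0 to 3 for IC against Control (51 to 133 and 18 to 73 of 5574 to 5925 genes). The 1 called higher there was Kcnn1, except without Control array B, where Kcnn1 was lost and Trpv2 was called instead. For EC against IC the counts were 0 to 1 and 0 to 2 (97 to 154 and 38 to 71 of 5622 to 5864 genes). The medians of the channel genes were -0.25 to -0.12, -0.13 to -0.008 and -0.18 to -0.08. Between 39 and 45 genes were then above background, since 1 array sufficed for the reduced pool. With Control array A and IC array B both left out, 3 channel genes were higher in EC against Control (289 of 5857 genes). In IC against Control 2 were lower (55 of 5910 genes, channel median -0.017), and in EC against IC 1 was lower (71 of 5808 genes). Without the filter all 3 medians were 0.00, because most added genes sit at the floor. With a cutoff at the 90th percentile of genes of other tissues, 7 channel genes were above background. Under median scaling, quantile normalization and means over probe sets these counts and medians stayed within 1.5 times or the spread between array pairings. No named difference that was called changed sign under any alternative run. Dim signals limit these values: 31 of the 77 genes were below the floor on all arrays.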
